A study of Mus musculus with 14 samples.

Results

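Baseline expression was compared between 2 materials of one mouse study: adult corpus callosum tissue and oligodendrocytes grown in culture, both labelled WT. They were chosen by group label alone, as the 4 callosum_WT libraries and the 3 oligodendrocyte_WT libraries, which are 7 of the 14 RNA-seq libraries of the series. The other 7 libraries carry a loss of Qk, the gene of the RNA-binding protein quaking, and were not compared here. The callosum came from mice of a mixed FvB and C57BL6 background that carried Plp-CreERT2 and 1 floxed Qk copy (QKLoxP/+). They had tamoxifen at 8 weeks of age, and the tissue was taken 4 days later. These controls therefore carried the Cre driver, the drug and a floxed allele, and Plp-CreERT2 is active in oligodendrocytes, so 1 Qk copy can be lost in those cells. The cultured cells were differentiated from neural stem cells at passages 7, 12 and 13 in Neurobasal medium that held 50 ng/ml of the thyroid hormone T3 and 100 ng/ml of IGF-1 beside B-27 and GlutaMAX-I at 2 mM. Their descriptions carry EtOH, and the alleles of the cultures labelled WT are not stated in the sources used here. Nothing says whether the passages are separate isolations from separate animals.

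The corpus callosum is the large fibre tract between the cerebral hemispheres, and it holds axons, the oligodendrocytes that wrap them in myelin, astrocytes, microglia and blood vessels. Oligodendrocytes arise from precursor cells, pass through a short newly formed stage, and then make compact myelin, of which myelin basic protein is a main component. Neural stem cells in culture can give rise to neurons, astrocytes and oligodendrocytes.

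Each library column holds a fitted value of a statistical model, so the libraries of a group give the same level for every gene and no replicate spread is left. The level used here is fitted CPM, the share of a library's fitted counts that a gene takes, on the usual CPM scale of RNA-seq. The shallowest and deepest callosum libraries had 17913240 and 27666519 fitted counts, and those of culture had 38325833 and 48912999. A total of 3 counts over a group, the smallest level taken as measurable, equals 0.0326 CPM in callosum and 0.0233 CPM in culture, and this floor covers counting error only. The tissue and culture tables were normalized separately, so no test between them exists, and large differences in level and rank are described without a p-value. As an error scale, the authors' deposited tables give a standard error of the genotype contrast per gene, with a median of 0.14 log2 in callosum and 0.18 in culture and a root sum of squares of 0.23. Among named or listed genes, none was above 0.54 in callosum or 0.76 in culture, also where reads were few. A standard error near these limits may therefore understate the spread of a gene. The fitted level also depends on the label: with the deposited mean over all libraries of each table, Qk-KO included, in place of the WT level, 84 of the 198 named or listed genes past the 10-fold rule used below moved by over 1.5-fold and 19 no longer met it. For named genes past that rule and above the floor in both groups, the value from this mean is given in the paragraph on the gene where it differs by over 1.5-fold. These are bulk samples, in which fewer cells of a type and less RNA per cell cannot be told apart.

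Of the 46983 genes in each table, 17304 reached 1 CPM in at least 1 group. Callosum had 16981 such genes and culture 13482, with 13159 in both, 3822 in callosum only and 323 in culture only. A gene was counted as higher in a group where its level was at least 10-fold that of the other group and at least 5 CPM. By that rule 1506 genes (8.70%) were higher in callosum and 118 (0.682%) were higher in culture. The median log2 difference, callosum minus culture, was 0.63 over the 17304 genes and 0.27 over those in both groups. Predicted models, clones and pseudogenes made up 262 of the callosum count and 23 of the culture count. In 151 of the genes higher in callosum, culture was at or under its floor. The order of genes was related, with a Spearman correlation across genes of 0.781. Genes are not independent replicates, and each shares its length between the groups. Of the 100 nuclear protein-coding genes highest per kilobase of exon in each group, 42 were shared.

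**Figure D1:**
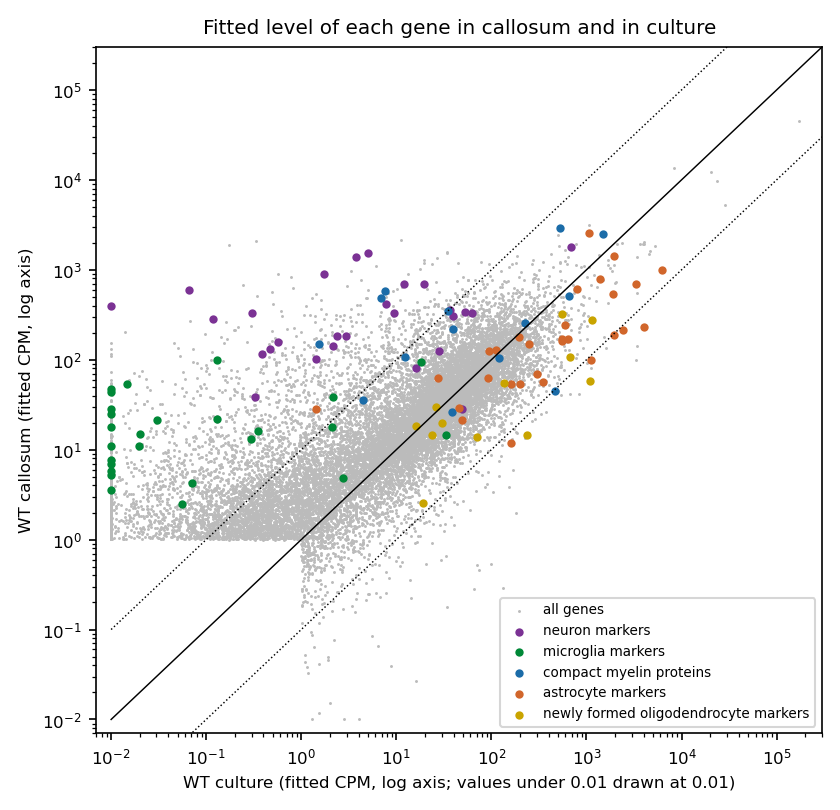
Fitted CPM of each gene at 1 CPM or more in either group, WT culture on the x axis and WT callosum on the y axis, both on log axes, with equality as a solid line and 10-fold differences dotted. Most neuron and microglia markers lie above the upper dotted line, while 5 of the 29 astrocyte markers lie below the lower one.

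The kinds of RNA differed as well. Mitochondrial ribosomal RNA took 5.04% of fitted counts in callosum and 20.3% in culture. The main gene of this class, mt-Rnr2, which encodes the large mitochondrial ribosomal RNA, stood at 45119 CPM in callosum and 173927 CPM in culture. Mitochondrial messenger RNA took 1.53% and 3.61%, and nuclear protein-coding genes took 87% and 70.3%. The part of library preparation in these shares was not tested. A larger mitochondrial share lowers the CPM of every other gene in culture. Scaling without mitochondrially encoded genes moved all log2 differences by -0.30, and 1316 of the 1506 genes higher in callosum and all 118 genes higher in culture were still counted.

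**Figure D2:**
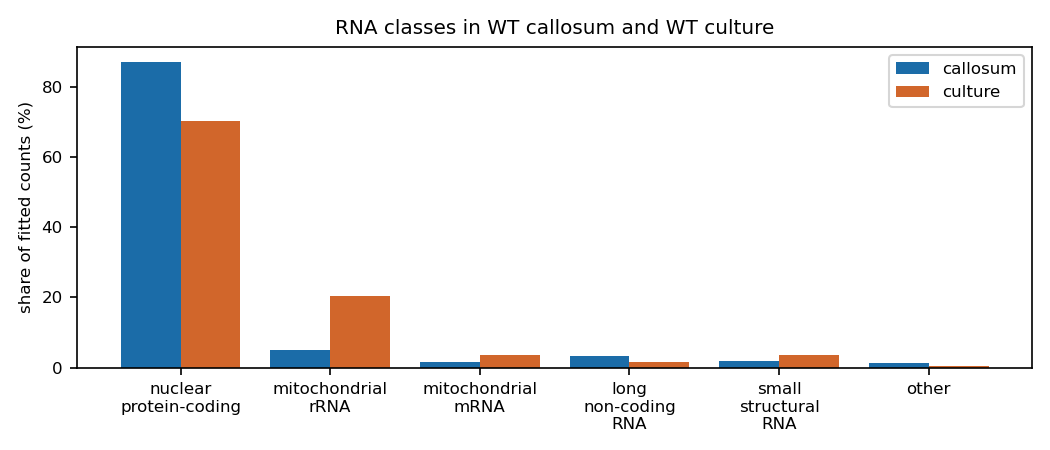
Share of fitted counts in percent (y axis) by class of RNA (x axis) in WT callosum and WT culture. Mitochondrial ribosomal RNA is at 5.04% in callosum and 20.3% in culture.

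Transcripts of the myelin sheath were present in both groups, but unevenly. The list called compact myelin genes here also holds proteins of other parts of the sheath, such as Cnp, Mag and Mog. All 14 of its genes reached 1 CPM in both groups, and 4 were higher in callosum and 1 in culture by the 10-fold rule. Their median log2 difference was 2.48 against 0.63 over all genes. Mbp, which encodes myelin basic protein, stood at 2925 CPM in callosum and 525 CPM in culture, a 5.57-fold difference. Per kilobase of exon, Mbp ranked 47 in callosum and 494 in culture. Cnp, an enzyme of the non-compacted myelin layers, stood at 514 CPM in callosum and 654 CPM in culture. Neither of these abundant genes met the 10-fold rule.

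Gaps were wider at several other myelin genes. Mobp, a basic protein of compact myelin, stood at 577 CPM in callosum and 7.66 CPM in culture, a 75.3-fold difference. For Mobp the authors' deposited tables give standard errors of 0.19 in callosum and 0.76 in culture, against a log2 difference of 6.24. Mal, a proteolipid of membrane transport, stood at 483 and 6.84 CPM. Ermn, a cytoskeletal protein of the myelin sheath, stood at 148 and 1.53 CPM. Mag, the adhesion protein that faces the axon, was at 352 and 35.0 CPM, just past the 10-fold rule at 10.1-fold, and it fell short of it when mitochondrial genes were left out of the scale (log2 difference 3.03). From the mean over all libraries its log2 difference was 4.09. Mog, found on the outermost myelin layer, was at 107 and 12.2 CPM. The opposite direction was seen for Cd9, a tetraspanin that is also made by astrocytes and many other cells, at 45.3 CPM in callosum and 472 CPM in culture. Cd9 met the rule on the WT level only, since its log2 difference was -2.62 from the mean over all libraries.

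The Mobp start lies on chromosome 9 (GRCm38, gene at chr9:120149707-120181484 in the GENCODE annotation) and its upstream sequence is shown since this gene had one of the widest gaps among the myelin genes. The 250 bases before the RefSeq start are given on the plus strand, chr9:120149492-120149741 (GRCm38.p6), with every match to the core letters bound by SOX factors, ACAAAG or its reverse complement, in capitals.
Mobp: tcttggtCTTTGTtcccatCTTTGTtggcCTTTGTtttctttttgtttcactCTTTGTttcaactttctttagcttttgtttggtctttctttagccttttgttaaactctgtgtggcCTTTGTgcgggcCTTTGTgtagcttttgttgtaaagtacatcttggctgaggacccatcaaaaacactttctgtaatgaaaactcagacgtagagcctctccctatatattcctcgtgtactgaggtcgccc
This window held 6 matches. The core was found in 5 of the 11 compact myelin genes whose promoter was in the RefSeq table and in 16.5% of 32851 promoters of that length, both strands searched. A match describes letters and is not evidence of binding.

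Markers of mature oligodendrocytes were mostly higher in callosum. Of 29 such markers, 10 were higher in callosum and 0 in culture by the 10-fold rule, and the median log2 difference was 2.42. Every one reached 1 CPM in callosum and 21 did in culture. Apod, a lipid carrier, was at 218 CPM in callosum and 0.70 CPM in culture. Hapln2, a link protein of the matrix at nodes of Ranvier, was at 39.2 and 0.291 CPM. Trf, which encodes the iron carrier transferrin, was at 36.3 and 0.686 CPM. Gjb1, a gap junction protein of oligodendrocytes, was at 21.4 and 0.373 CPM. The log2 differences of Apod, Hapln2 and Gjb1 (8.28, 7.07 and 5.84) were 8.95, 6.30 and 6.86 from the mean over all libraries. Not all markers of this list were low in culture: Ugt8a, which makes the myelin lipid galactosylceramide, was at 135 CPM in callosum and 219 CPM in culture, and Plekhb1 was at 269.5 and 228 CPM.

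Genes of the newly formed stage were mostly on the other side. Of 12 markers, 10 had the higher level in culture, 2 of them by the 10-fold rule and 0 higher in callosum by it, with a median log2 difference of -1.67. Gpr17, a receptor switched on between the precursor and the myelinating cell, was at 57.3 CPM in callosum and 1077 CPM in culture, an 18.8-fold difference. For Gpr17 the authors' deposited tables give standard errors of 0.18 and 0.15, against a log2 difference of -4.23. Enpp6, a choline phosphodiesterase of newly forming oligodendrocytes, was at 14.7 CPM in callosum and 239 CPM in culture. Bcas1, a marker of early myelinating cells, was at 279 and 1155 CPM. Fyn, a kinase needed for oligodendrocyte differentiation, was at 106 and 674.5 CPM. Per kilobase of exon, Bcas1 ranked 67 and Gpr17 115 in culture, while Mobp ranked 11070 there.

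Precursor genes were present in both groups. Of 17 precursor markers, 13 had the higher level in culture and the median log2 difference was -1.32, with 1 past the 10-fold rule in culture and 0 in callosum. C1ql1, a secreted complement-like protein, was that gene, at 3.81 CPM in callosum and 85.9 CPM in culture. Pdgfra, the growth factor receptor that defines precursors, was at 92.0 and 193 CPM. Cspg4, the NG2 proteoglycan, was at 21.9 and 58.3 CPM. Both defining precursor markers were thus higher in culture by less than 3-fold, without reaching the rule. The matrix glycoprotein gene Tnr was at 236 and 1002 CPM.

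Transcription factors of the lineage went both ways. Olig2, required to specify the lineage, was at 25.9 CPM in callosum and 274 CPM in culture, a 10.6-fold difference. Sox8 was at 61.5 and 510 CPM and Sox10 at 38.2 and 84.7 CPM. Myrf, which switches on myelin genes, was close between the groups at 43.0 and 63.2 CPM. In the other direction, St18 was at 30.7 CPM in callosum and 2.89 CPM in culture, and Zfp536 was at 46.5 and 6.25 CPM. St18 met the 10-fold rule at 10.6-fold and fell short of it without mitochondrial genes in the scale (log2 difference 3.11). Over the 14 factors 9 had the higher level in culture.

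**Figure D3:**
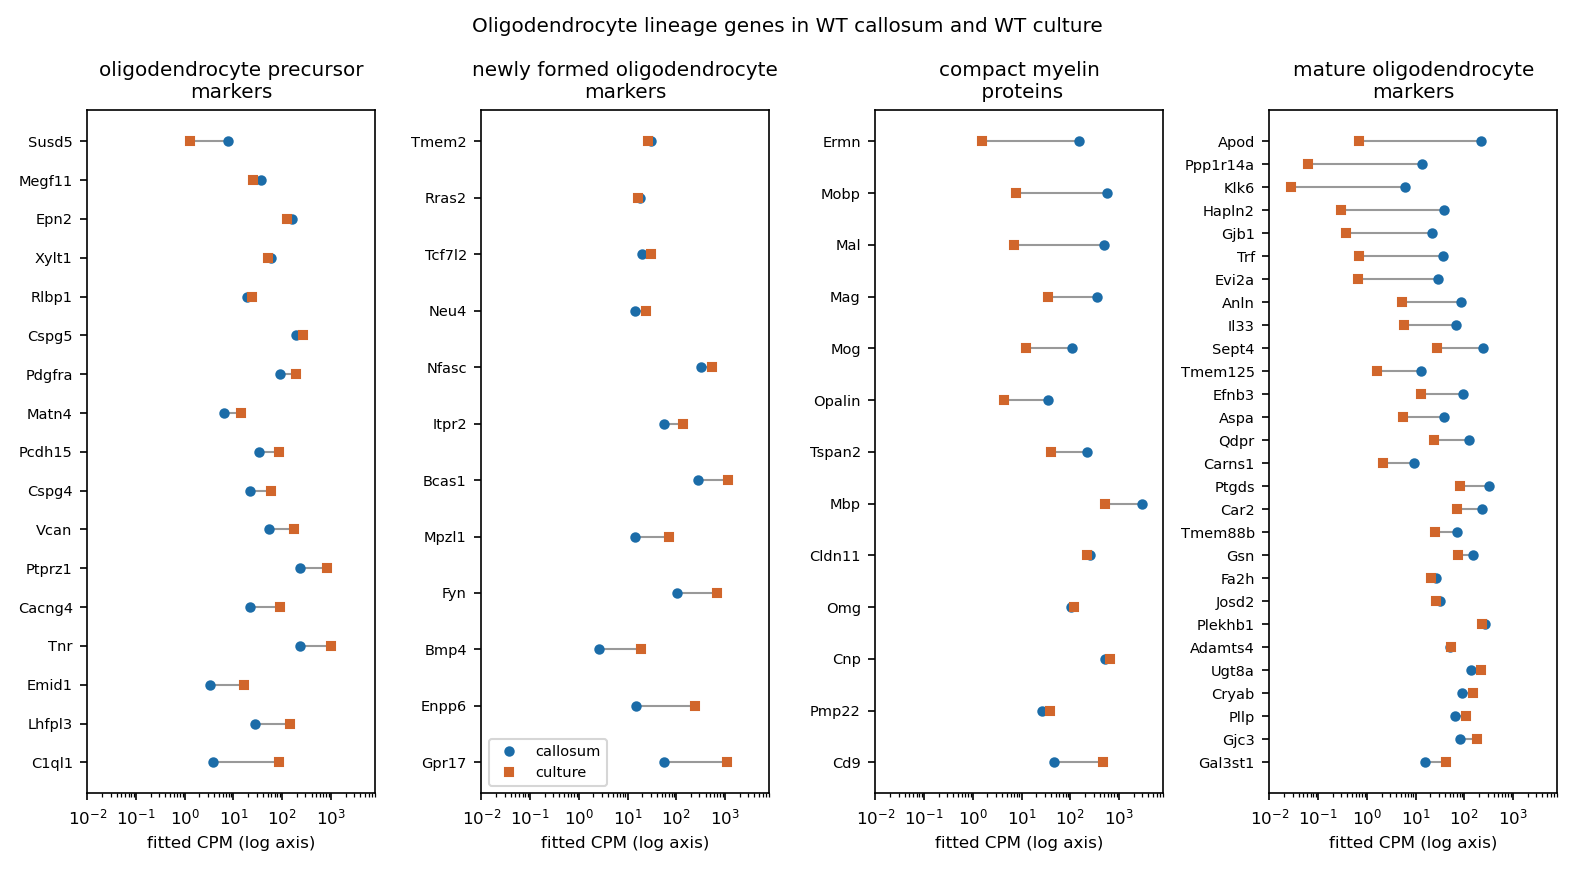
Fitted CPM (x axis, log scale) of precursor, newly formed, compact myelin and mature oligodendrocyte genes (1 compact myelin and 1 mature gene are not drawn), with circles for WT callosum and squares for WT culture; each panel is ordered by the ratio. Culture lies to the right for 10 of 12 newly formed markers and to the left for most mature markers, 23 of 29 over the whole list.

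Astrocyte transcripts were abundant in the cultures labelled as oligodendrocytes. All 29 astrocyte markers reached 1 CPM in culture, 24 had the higher level there, and their summed level was 10127 CPM in callosum and 30563 CPM in culture. By the 10-fold rule 5 were higher in culture and 1 in callosum, and the median log2 difference was -1.56. Gfap, the intermediate filament of astrocytes, was at 228.5 CPM in callosum and 4008 CPM in culture. In culture its level per kilobase of exon was 950.2 CPM, against 62.0 for Mbp. Gja1, the gap junction protein connexin 43, was at 216 and 2408 CPM. Aqp4, the water channel of astrocyte endfeet, was at 188 and 1962 CPM. Sox9, a transcription factor of glial progenitors and astrocytes, was at 12.0 and 162 CPM. Apoe, the lipid carrier, was at 1001 and 6256 CPM. The authors' deposited tables give standard errors for Gfap of 0.19 in callosum and 0.29 in culture. These levels belong to the WT label: with the deposited mean over all libraries of each table in place of the WT level, the log2 difference of Gfap moved from -4.13 to -1.96, and 1 of the 29 markers, in place of 5, was past the rule in culture. On that level the log2 differences of Gja1, Aqp4 and Apoe (-3.48, -3.38 and -2.64) were -2.75, -2.54 and -1.69.

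Some astrocyte genes went the other way. Slc1a2, the main glutamate transporter, was at 2568 CPM in callosum and 1063 CPM in culture. Slc7a10, an amino acid transporter of mature astrocytes, was at 28.2 CPM in callosum and 1.41 CPM in culture, the 1 marker of this list higher in callosum by the rule. Glul, glutamine synthetase, was close at 1417 and 1954 CPM. Of the 22 reactive astrocyte genes at 1 CPM, 19 had the higher level in culture, with 3 past the rule there and 1 in callosum. Among them Cd109 was at 6.001 and 169.6 CPM, and Serpina3n, a protease inhibitor, was at 13.1 and 166.0 CPM. The authors' deposited table gives a standard error of 0.67 for Serpina3n in culture, and its log2 difference was -3.66 from the WT level but -1.67 from the mean over all libraries. Amigo2 was the exception by the rule, at 25.3 CPM in callosum and 1.20 CPM in culture.

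Stem cell genes were also higher in culture in most cases. Of 23 such genes, 19 had the higher level there, 3 of them by the 10-fold rule and 1 higher in callosum by it. Vim, the filament protein vimentin, was at 41.6 CPM in callosum and 835 CPM in culture. Its log2 difference was -4.33, and -3.47 from the mean over all libraries. Fabp7, a fatty acid binding protein of radial glia, was at 26.5 and 375 CPM. Sox3, a transcription factor of neural progenitors, was at 1.25 and 31.8 CPM. Sox2 was at 32.7 and 226 CPM. Vim, Fabp7 and Sox2 are shared with astrocytes, so these genes do not separate the 2 cell types. The listed genes of dividing cells did not reach the rule, which says nothing of such genes outside the lists. Mki67, a marker of cycling cells, was at 14.3 and 21.1 CPM, Tyms, thymidylate synthase, was at 26.0 and 8.06 CPM, and none of the 14 S phase genes or the 15 G2 and mitosis genes at 1 CPM met the rule in either direction.

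Inhibitors of the cell cycle stood apart from those. Of 14 p53 and arrest genes at 1 CPM, 13 had the higher level in culture and 4 met the 10-fold rule there. Cdkn2b, which encodes the inhibitor p15, was at 0.664 CPM in callosum and 33.0 CPM in culture. Cdkn2a, whose products are p16 and p19Arf, was at 0.257 and 6.08 CPM. Eda2r, a receptor and known p53 target, was at 0.923 and 23.5 CPM. Cdkn2c was at 2.94 and 32.5 CPM, and its log2 difference of -3.47 became -3.0, short of the rule, from the mean over all libraries. The p21 gene Cdkn1a was at 7.47 and 43.5 CPM. The cultures were at passages 7, 12 and 13, and the levels of single passages could not be read from fitted values.

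Neuronal transcripts were far more abundant in the tissue. Of 27 neuron markers, 19 were higher in callosum and 0 in culture by the 10-fold rule, with a median log2 difference of 6.02 (5.03 from the mean over all libraries) and a summed level of 11970 CPM in callosum and 1042 CPM in culture. Snap25, a protein of synaptic vesicle fusion, was at 1539.9 CPM in callosum and 5.02 CPM in culture. Its log2 difference was 8.26, and 5.17 from the mean over all libraries. Syt1, the calcium sensor of transmitter release, was at 1390.0 and 3.75 CPM, with log2 differences of 8.53 and, from the mean over all libraries, 7.19. Slc17a7, the vesicular glutamate transporter of cortical neurons, was at 589.9 and 0.0652 CPM. Nefl, a neurofilament protein of axons, was at 330 and 0.305 CPM, with log2 differences of 10.1 and, from the mean over all libraries, 9.51. Map2 was the most abundant list member in culture, at 686 CPM, against 1791 CPM in callosum. Dcx, a marker of young neurons, was the 1 member with the higher level in culture, at 28.0 and 49.3 CPM.

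Genes listed for neurons of regions next to the tract were among them, though not all are restricted to 1 region. Slc17a7, Nrgn and Camk2a of the cortical list are also counted as neuron markers above. Of 15 striatal genes, 14 were higher in callosum by the rule, and of 11 cortical genes 9 were. Penk, a striatal opioid precursor, was at 133 CPM in callosum and 0.0510 CPM in culture. Drd1, the D1 dopamine receptor, was at 56.9 and 0.513 CPM. Scn4b, a sodium channel subunit of striatal neurons, was at 202 CPM in callosum and under the floor in culture. Tbr1, a transcription factor of deep cortical layers, was at 50.8 and 0.0860 CPM. The authors' deposited table for callosum gives wide standard errors for these genes, 0.51 for Penk, 0.51 for Drd1 and 0.47 for Tbr1, against the median of 0.14. The callosum group also held choroid plexus genes, of which 11 of 16 were higher there. Ttr, the thyroid hormone carrier transthyretin, stood at 1865 CPM in callosum and 0.175 CPM in culture and ranked 12 per kilobase in callosum. Kl, the gene of klotho, was at 62.4 and 0.0793 CPM. The log2 differences of Ttr and Kl (13.4 and 9.62) were 12.8 and 8.92 from the mean over all libraries. The authors' deposited table for callosum gives a standard error of 0.38 for both Ttr and Kl. How neurons and choroid plexus came into the dissected samples was not tested.

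Genes of the axon-glia contact were in part far higher in callosum. Of 14 node and paranode genes, 7 were higher in callosum by the rule and 0 in culture. Cntn2 and Cntnap1 encode cell adhesion proteins around the node, the first also made by oligodendrocytes. Cntn2 was at 218 and 1.60 CPM. Cntnap1 was at 172 and 1.62 CPM. Scn1a, a sodium channel subunit of axons, was at 346 and 0.619 CPM, with log2 differences of 9.13 and, from the mean over all libraries, 7.74. Nfasc, whose splice forms are made by both neurons and glia, was at 324 CPM in callosum and 550.2 CPM in culture.

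Markers of microglia were far lower in culture. Of 26 microglia markers, 19 were higher in callosum by the rule and 0 in culture, and in culture 14 were at or under the floor, 8 of them with no reads in any library of the culture table. C1qa, a subunit of complement C1q, was at 43.4 CPM in callosum and had no reads in culture. Csf1r, the growth factor receptor microglia depend on, was at 98.7 and 0.130 CPM. Tmem119 was at 21.4 and 0.0306 CPM. Cx3cr1, the fractalkine receptor, was at 47.7 CPM in callosum and under the floor in culture. P2ry12 was higher in culture than those, at 2.17 CPM against 38.4 CPM in callosum, with log2 differences of 4.14 and, from the mean over all libraries, 4.88. Sall1, also used by neural progenitors, was the 1 member with the higher level in culture, at 14.5 and 33.3 CPM. The summed level of the list was 630.4 CPM in callosum and 59.8 CPM in culture. By the rule, 0 of 23 interferon response genes and 0 of 15 antigen presentation genes at 1 CPM were called. Of these 15, 8 had the higher level in callosum and 7 in culture. H2-Aa and Cd74, genes of antigen presentation, had log2 differences of 6.1 and 5.61 but were under 5 CPM in callosum. From the mean over all libraries their log2 differences were 8.03 and 6.82, and Cd74 then met the rule.

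Many blood vessel genes were higher in callosum too. Of 19 endothelial markers, 15 were higher in callosum by the rule. Cldn5, the tight junction protein of the blood-brain barrier, was at 26.4 CPM in callosum with no reads in culture. Rgs5, a pericyte gene, was at 131 and 2.40 CPM, and 5 of 13 mural cell markers met the rule in callosum. Among 13 fibroblast and meningeal markers at 1 CPM, 8 met it there, with Dcn, a matrix proteoglycan, at 16.3 and 0.0351 CPM. Haemoglobin transcripts, from red blood cells, were in callosum only. Hbb-bs was at 72.1 CPM there with no reads in culture, and reads of Hbb-bs and its near-identical copy Hbb-bt may be split between them. The ependymal list was mixed, since Foxj1, the regulator of motile cilia, was at 12.8 CPM in callosum and 82.8 CPM in culture, while Ccdc153 was at 5.19 and 0.496 CPM and Tmem212 had no reads in culture.

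**Figure D4:**
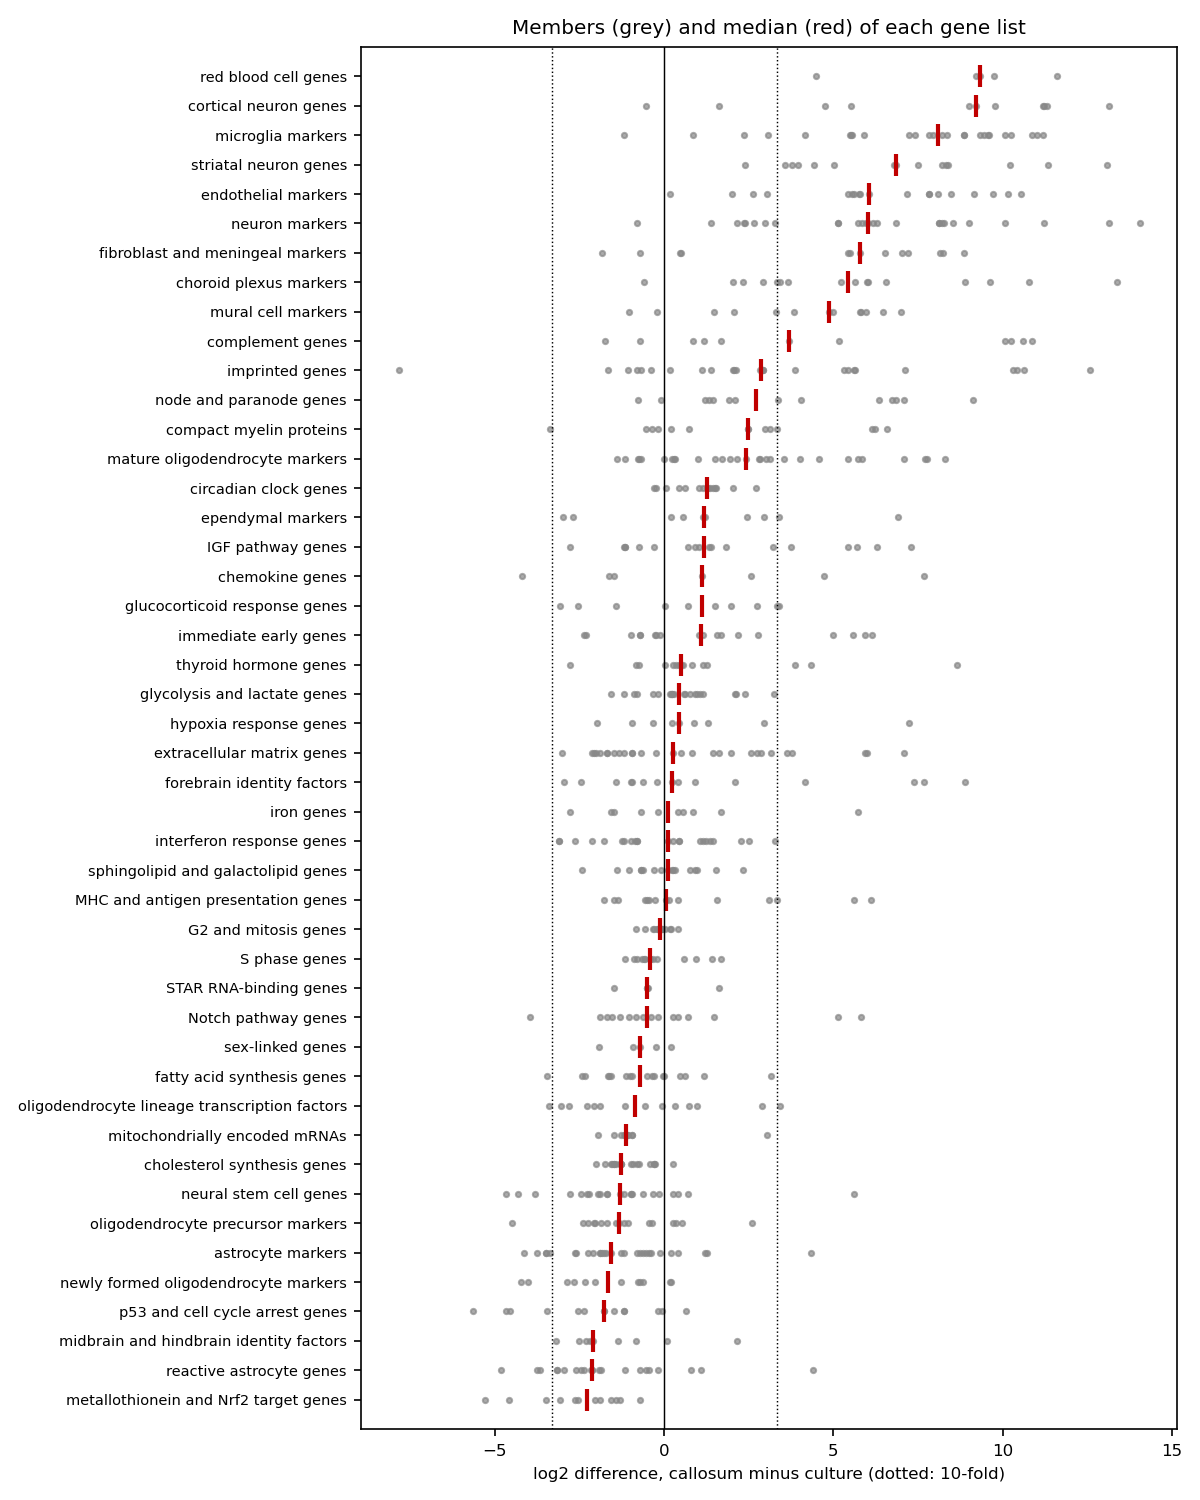
Log2 difference of fitted level, callosum minus culture (x axis), for the members at 1 CPM in either group (grey points) and the median (red bar) of each gene list (y axis), with 10-fold differences dotted. At the WT level drawn, the red blood cell, cortical neuron and microglia medians are 9.34, 9.21 and 8.07 and the metallothionein and Nrf2 median is -2.29; from the mean over all libraries they are 10.6, 9.52, 9.80 and -1.86, and the midbrain and hindbrain list is lowest (-2.62).

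An imprinted domain on chromosome 12 was under 1 CPM in culture at every gene counted. Imprinted genes are read from the copy of 1 parent only, and in the Dlk1-Meg3 domain the non-coding RNAs Meg3, Rian and Mirg come from the maternal copy and the protein-coding genes Dlk1 and Rtl1 from the paternal copy. Meg3 was at 2070.4 CPM in callosum and 0.337 CPM in culture. Rian was at 905 and 0.569 CPM. Mirg was at 73.4 and 0.0577 CPM. The log2 differences of Meg3 and Rian (12.58 and 10.63) were 11.4 and 9.41 from the mean over all libraries. Genes of both parental classes were low in culture, since Rtl1 was at 32.0 CPM in callosum and under the floor in culture and Dlk1 was at 2.37 and 0.0489 CPM. The authors' deposited tables give standard errors for Meg3 of 0.21 in callosum and 0.59 in culture. From Dlk1 to Mir541 (chr12:109452823-109742498, GRCm38), 20 genes, among them small nucleolar and microRNA hairpin genes, reached 1 CPM in a group. This span leaves out Dio3, a further imprinted gene of the domain. The size of its log2 difference was 1.53 times the root sum of squares of its standard errors, 0.82. None of the 20 reached 1 CPM in culture, 15 were at or under the floor there, and 7 met the 10-fold rule in callosum. Over all genes, 3822 of 17304 were at 1 CPM in callosum only, and 8.70% met the rule there. The lowest log2 difference was 5.45, a value in which a gene under the floor counts as at it. All 20 passed the 1 CPM filter through callosum, so this lowest value follows from the filter and the floor. The strand setting of the counting is not given in the sources used here, so reads of Rtl1 and of non-coding RNA on the opposite strand cannot be told apart.

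Genes beside the domain did not share this pattern, apart from 1. Of 9 genes at 1 CPM within 1 Mb of Meg3 outside the domain, 1 was higher in callosum by the rule. That gene was Begain, a protein of the postsynaptic density, at 52.7 and 0.541 CPM. The other flanking genes had log2 differences from -0.37 to 2.77, with Yy1 at 35.7 and 46.1 CPM. The Meg3 promoter is shown because the gene had the widest log2 difference among imprinted genes. The 250 bases before its RefSeq start are given on the plus strand, chr12:109540746-109540995 (GRCm38.p6), with the core letters of the imprint regulator ZFP57, TGCCGC or its reverse complement, in capitals.
Meg3: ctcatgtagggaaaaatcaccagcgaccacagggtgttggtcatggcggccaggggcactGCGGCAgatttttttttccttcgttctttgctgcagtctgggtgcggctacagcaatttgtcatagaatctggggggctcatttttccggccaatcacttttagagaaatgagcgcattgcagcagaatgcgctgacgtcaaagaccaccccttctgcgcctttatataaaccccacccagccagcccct
The window held 1 match, on the reverse strand. Of the 4 domain genes with a promoter in the RefSeq table, 1 had the core, as did 8.68% of 32851 promoters of that length. The methylation of this region was not measured, and the part of cell composition in the levels of the domain was not tested.

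**Figure D5:**
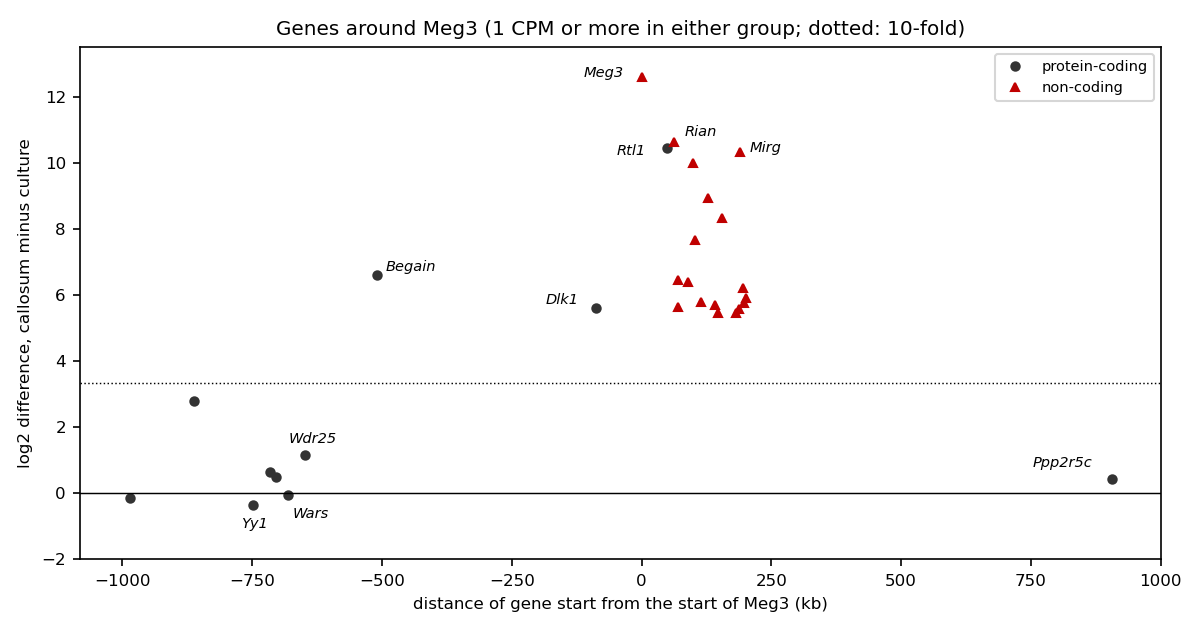
Log2 difference, callosum minus culture (y axis), by distance of each gene's start from the start of Meg3 in kilobases (x axis), for genes at 1 CPM in either group, with circles for protein-coding and triangles for non-coding genes. The 20 genes counted from Dlk1 to Mir541 lie at 5.45 or above, a lower limit that follows from the 1 CPM filter and the culture floor. The flanking genes other than Begain lie between -0.37 and 2.77.

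Imprinted genes outside this domain varied. Over the whole imprinted list, 26 genes reached 1 CPM, and 7 were higher in callosum and 1 in culture by the rule. These counts include genes of the Dlk1-Meg3 domain described above, such as Meg3 and Rian. H19, a maternally expressed non-coding RNA, was that 1 gene, at 0.284 CPM in callosum and 65.3 CPM in culture. Its neighbour Igf2, a growth factor gene, was at 40.5 CPM in callosum and 0.940 CPM in culture. This neighbouring pair thus went in opposite directions. The parental copy that was read was not measured, and the part of cell composition in these values was not tested. The authors' deposited table for culture gives standard errors of 0.75 for both H19 and Igf2, among the widest in that table. Usp29 was at 58.5 and 1.48 CPM, with log2 differences of 5.30 and, from the mean over all libraries, 4.01. Grb10, an adaptor of growth factor receptors, was at 60.5 and 4.18 CPM, though the log2 difference of Grb10 fell short of the rule (2.79) from the mean over all libraries. Peg3, a zinc finger gene, was at 626 and 84.4 CPM, short of the rule. Nnat was at 99.8 and 314.5 CPM.

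Metallothioneins and genes of oxidative stress were higher in culture throughout their list. All 12 members at 1 CPM had the higher level in culture, 3 of them by the rule, with a median log2 difference of -2.29. Mt1, a metal-binding protein, was at 142 CPM in callosum and 3414 CPM in culture, 24.1-fold, and ranked 217 and 14 per kilobase. Mt2 was at 44.5 and 377 CPM. Mt3, the brain form, was at 99.6 and 1116 CPM, with a log2 difference of -3.49, or -3.07 from the mean over all libraries, which is short of the rule. Hmox1, haem oxygenase, was at 3.86 and 152 CPM, a 39.4-fold difference. Slc7a11, the cystine transporter, was at 84.0 and 345 CPM. The log2 differences of Mt1 and Hmox1 (-4.59 and -5.30) were -3.89 and -4.60 from the mean over all libraries. For Hmox1 the authors' deposited tables give standard errors of 0.24 and 0.22. Astrocytes express Mt1, Mt2 and Mt3 too, and the part of cell composition in these values was not tested.

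Upstream windows of the neighbouring genes Mt1 and Mt2 on chromosome 8 are shown for their metal response core, TGCACNC or TGCGCNC, in capitals on either strand. Each is the 250 bases before the RefSeq start on the plus strand, Mt1 at chr8:94178839-94179088 and Mt2 at chr8:94172368-94172617 (GRCm38.p6).
Mt1: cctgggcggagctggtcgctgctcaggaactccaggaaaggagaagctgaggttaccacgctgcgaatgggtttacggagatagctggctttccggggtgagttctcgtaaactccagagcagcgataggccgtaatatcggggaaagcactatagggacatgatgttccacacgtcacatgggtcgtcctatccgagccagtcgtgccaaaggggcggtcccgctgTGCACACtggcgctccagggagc
Mt2: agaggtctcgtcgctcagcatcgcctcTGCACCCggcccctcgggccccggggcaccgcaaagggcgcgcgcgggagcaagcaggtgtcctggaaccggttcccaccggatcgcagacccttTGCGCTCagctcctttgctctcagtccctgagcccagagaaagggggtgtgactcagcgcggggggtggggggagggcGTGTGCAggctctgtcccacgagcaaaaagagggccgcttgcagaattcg
The Mt1 window held 1 match and the Mt2 window 3, and no match was found in the same window of Mt3. Each window ends at the annotated RefSeq start, and bases after it were not searched. The counts are therefore not those of a whole promoter and do not rank the 3 genes. Among 32851 promoters of that length, 21.4% held a match.

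Most cholesterol and fatty acid synthesis genes had the higher level in culture. Of 20 cholesterol synthesis genes, 19 had the higher level in culture and 0 met the rule, with a median log2 difference of -1.28. Hmgcs1, an early enzyme of the pathway, was at 332 and 936 CPM. Of 18 fatty acid synthesis genes at 1 CPM, 14 had the higher level in culture and 4 in callosum. Scd2, the brain fatty acid desaturase, was at 1481 and 4597 CPM. Fads2, which desaturates polyunsaturated fatty acids, was at 91.4 CPM in callosum and 1003 CPM in culture, the 1 fatty acid synthesis gene past the rule. From the mean over all libraries its log2 difference was -3.07, short of the rule. These pathways serve both myelin and astrocytes. The sphingolipid and galactolipid list was even, with a summed level of 2355 CPM in callosum and 2379 CPM in culture.

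Genes tied to the added hormones were examined too. Hr, a known thyroid hormone target, was at 29.8 CPM in callosum and 206 CPM in culture. Klf9, another known target, was close at 192 and 151 CPM. The receptor genes were present in both, with Thra at 408 and 300.0 CPM. Slco1c1, a thyroid hormone carrier of brain vessels and astrocytes, was at 66.1 and 0.163 CPM. Igf1r, the receptor for the added IGF-1, was at 58.4 and 23.4 CPM, and Igf1 itself at 10.9 and 0.209 CPM. Over the 15 thyroid hormone genes at 1 CPM, 2 were higher in callosum by the rule and 0 in culture. The shares over all 17304 genes were 8.70% and 0.682%, so these small counts do not set the list apart.

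Qk was present in both groups labelled WT, at 713 CPM in callosum and 1972 CPM in culture, a 2.77-fold difference. The authors' deposited tables give standard errors for Qk of 0.12 in callosum and 0.14 in culture. Callosum controls carried 1 floxed Qk copy and the culture's alleles are not stated, so tissue, culture and Qk dose cannot be told apart here. Of the other 4 genes of its RNA-binding family, Khdrbs3 was at 147 CPM in callosum and 48.2 CPM in culture, and the other three were within 1.5-fold.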

How the data were processed

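RNA-seq tables of 2 systems were used, and the 7 libraries labelled WT were grouped by their titles. Reads were processed with FastQC, TopHat2 2.0.14, featureCounts and DESeq2 on mm10, per the submitters' processing notes; the sources used here do not give the annotation, the strand setting or the model. The library columns are log2 values that the authors deposited. Within a genotype they differ by 1 constant factor at every gene (tolerance 1e-09), so they hold the log2 of a fitted mean plus 1. The deposited mean column is a normalized signal over all libraries and was used as an alternative. The deposited log2 fold change, score and p-value columns were not used for a result, and the deposited standard error served as the error scale.

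Each WT column was turned back from log2, lowered by 1, divided by its sum and scaled to CPM. Groups were averaged and genes matched by identifier (46983). Columns would have shown a spread between libraries under the design as planned, and since they are fitted means none could be given. Exon lengths and positions came from GENCODE M21 (GRCm38, the sequence of mm10), matched for 46488 identifiers, and promoter sequences from RefSeq (GRCm38.p6). Genes without reads numbered 14022 in callosum and 18424 in culture. The calling step was run on simulated data without noise, with changes set larger than the 10-fold rule. That run checks the code and says nothing about error in the calls.

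The comparison, its members and the gene lists were chosen with earlier results of these data known. Named genes are the 10 highest in each group, the 15 largest ratios in each direction at 50 CPM or more, members of each list with the highest level or largest ratio, Qk and fixed cell type markers; Begain, Yy1, list members outside these limits and the genes singled out as exceptions were chosen after their values were seen. The list symbols 9630013A20Rik and Drd1a are not in the tables' symbols. A few listed genes that count in their lists are not reported here by name. Alternatives were other scales, levels, folds and filters, and leaving out each library. Python 3.11.15, numpy 2.4.6, pandas 2.3.3 and matplotlib 3.10.9 were used.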

Additional observations from a re-analysis of the deposited data

How the results depend on the processing

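The count of genes higher in callosum (1506) was 2714 with a minimum of 1 CPM in the higher group, 561 with 50 CPM, 4350 with no level filter, 2542 at a fold of 4 and 688 at a fold of 50. The count higher in culture (118) was 78 from the deposited mean over all libraries, 54 with 50 CPM, 182 with no level filter, 471 at a fold of 4 and 13 at a fold of 50. The Spearman correlation across genes (0.781) was 0.784 without mitochondrially encoded genes, 0.801 from the mean over all libraries, 0.653 at a minimum of 5 CPM and 0.855 at 0.1 CPM. Leaving out each library in turn gave 1506 to 1506, 118 to 118 and 0.781 to 0.781, which fitted values force and which says nothing about stability. Setting the median log2 ratio of genes in both groups to 0 moved every difference by -0.27 and gave 1331 and 143 genes. Of the genes counted in culture, 70 were also among the 78 from the mean over all libraries.

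Of 717 named or listed genes, 201 moved by over 1.5-fold from the mean over all libraries. Of the 717, 701 kept their side of the 10-fold rule without mitochondrially encoded genes, 703 on the median scale and 687 from the mean over all libraries. Genes past the rule kept their sign under these 3 settings. Of the others, 36, 31 and 33 changed sign, all at WT log2 differences of 0.29, 0.26 and 1.12 or less in size. The medians of the interferon, antigen presentation, sphingolipid, extracellular matrix, forebrain factor and iron lists changed sign with the scale, so no direction is given for them. No paired analysis was possible because callosum and culture libraries share replicate numbers but come from different material, and fitted values hold no deviation of a single library. Levels near the floor of 3 counts are limited by depth. The tables were normalized and fitted separately, so a scale difference between them was not tested.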

Other observations

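Factors of regional identity differed in their levels. None of the 29 Hox genes, which mark hindbrain and spinal cord, reached 1 CPM in either group. Of 9 midbrain and hindbrain factors at 1 CPM, 7 had the higher level in culture and 0 met the 10-fold rule, with a median log2 difference of -2.11. Emx1, of cortical progenitors and excitatory neurons, was at 7.72 and 0.0377 CPM. Lhx6, of interneurons, was at 11.02 CPM in callosum with no reads in culture. Zic1 was at 85.7 and 81.0 CPM.

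Among genes of at least 50 CPM in culture, Glycam1, a mucin-like glycoprotein gene, had the largest ratio, at 0.290 CPM in callosum and 131.5 CPM in culture. Dmrtb1, a transcription factor gene known from the testis, was at 0.464 and 73.3 CPM. The authors' deposited table for culture gives standard errors of 0.62 for Glycam1 and 0.45 for Dmrtb1. Cxcr4, a chemokine receptor, was at 2.72 and 50.1 CPM, while its ligand gene Cxcl12 was at 28.3 and 0.140 CPM, with log2 differences of 7.66 and, from the mean over all libraries, 5.78.

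Circadian clock genes were present in both groups, with 13 of 15 at the higher level in callosum and 0 past the 10-fold rule. Neuronal activity genes differed among themselves. Arc was at 106 CPM in callosum and 3.33 CPM in culture, and Fos was at 12.3 and 64.3 CPM. Xist, which is read from the inactive X chromosome, was at 324 and 282 CPM, and the Y-linked Ddx3y was at 13.1 and 21.6 CPM, so Xist and Y-linked transcripts were both detected in each group.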
